A study of Homo sapiens with 3 samples.

Results

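Syndecans and glypicans are the cell-surface heparan sulfate proteoglycans, and their transcripts were followed here in H128 cells, an established human small cell lung cancer (SCLC) cell line, with and without knockdown of ESRRG, the gene encoding the nuclear receptor ERRγ. Both families were chosen with earlier results of these data known. The members were the 10 genes SDC1 to SDC4 and GPC1 to GPC6, taken by gene symbol and not picked within the families by their values. Of these, 9 of the 17448 genes in the deposited table were members, 4 syndecans and 5 glypicans, and GPC3 was not analysed here. The study compared 3 RNA-seq libraries, 1 library per condition, made 48 h after transfection of H128 cells with a control siRNA (siCont) or with an siRNA against ESRRG (siERRG2 or siERRG3). No other treatment or genotype distinguished the 3 libraries by their labels, and the only difference between siERRG2 and siERRG3 that they give is the siRNA. Which siRNA sequence each of these names stands for could not be settled from the sources used here. The question was which transcripts depend on ERRγ, which the study relates to extracellular matrix remodeling and cell adhesion. There were no replicates, so no test of the conditions was possible, and each ratio below carries only the counting error of its libraries.

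A syndecan is a transmembrane core protein and a glypican is a core protein tethered to the membrane by a glycosylphosphatidylinositol (GPI) anchor. Both carry heparan sulfate, a sulfated sugar chain that holds growth factors, morphogens and matrix proteins at the cell surface and presents them to their receptors. In the lung the family is known for roles in epithelial adhesion and in growth factor signalling, and glypicans are known regulators of Wnt, Hedgehog and fibroblast growth factor signals.

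The estimated read counts summed to between 19861937 and 20016780 per library. The libraries were brought to 1 scale with the TMM factors of edgeR, and fold changes were taken between log2 values of CPM (counts relative to the library total) after adding a prior count of 2. A call of lower or higher means a change of at least 1.2-fold, the threshold the study used. Where 3 counts follow a gene without further labels, they stand in the order siCont, siERRG2, siERRG3. Of the 17448 genes, 14031 had at least 10 counts in at least 1 library and were compared. ESRRG, the targeted gene, had 806 counts in the control against 211 with siERRG2 and 230 with siERRG3, and the ratio to siCont had a 95% exact binomial interval of 0.221 to 0.302 in siERRG2 and of 0.241 to 0.325 in siERRG3. Its relatives were not called, with 1184, 1270 and 1169 counts for ESRRA, while ESRRB had at most 4 counts. The 11 neuroendocrine markers analysed, among them INSM1, NCAM1, CHGA and SYP, were all past the count minimum, with summed levels of 2691 to 3065 CPM. The sum does not show that each marker was level. In siERRG2, 2 of 11 were called lower and 2 higher (18.2% each, against 19.2% and 16.4% of all genes). In siERRG3, 3 were called lower and 2 higher (27.3% and 18.2%, against 25.1% and 23.2%). INSM1 had 10359, 5279 and 9168 counts, NEUROD1 had 7395, 7020 and 4073, and UCHL1, the highest, had 16031, 15340 and 22326. The markers of other cell types summed to 7.72 to 9.67 CPM over 7 leukocyte genes and 30.4 to 82.4 CPM over 4 endothelial genes. The sums were 5.06 to 9.72 CPM over 5 non-neuroendocrine epithelial genes and 186 to 252 CPM over 10 fibroblast and mesenchymal genes. 0 of these marker genes were at 0 in every library, and VWF and KDR, endothelial markers, had at most 1 count. The endothelial sum came mostly from CDH5, with 1456, 1623 and 585 counts, and the mesenchymal sum mostly from COL1A2 and VIM. In bulk RNA, fewer cells with a transcript and less of it per cell cannot be told apart.

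ERRγ is known to bind the letters TNAAGGTCA, so the 250 bases before the annotated start of the members were read from RefSeq (GRCh38.p14), where 9 windows of 8 members were found. SDC2 and GPC3 were not among them, and 2 of the windows belong to SDC1. These starts belong to RefSeq transcripts and are not always the outer ends of the gene extents in the deposited table. Of the 9 windows, 6 lie wholly inside that extent, those of SDC3 and GPC1 among them, 1 lies partly inside, that of GPC2 with 45 bases, and 2 lie outside. The upstream stretches of SDC3, GPC1 and GPC2 are shown because SDC3 and GPC1 had ratios to siCont below 1 with both siRNAs, beyond counting error, while GPC2 had them on opposite sides of 1. They are written 5′ to 3′ on the strand of the gene, and capitals mark GGGCGG, the GC box, on either strand, with overlapping boxes run together.
SDC3, chr1:30908759-30909008, minus strand: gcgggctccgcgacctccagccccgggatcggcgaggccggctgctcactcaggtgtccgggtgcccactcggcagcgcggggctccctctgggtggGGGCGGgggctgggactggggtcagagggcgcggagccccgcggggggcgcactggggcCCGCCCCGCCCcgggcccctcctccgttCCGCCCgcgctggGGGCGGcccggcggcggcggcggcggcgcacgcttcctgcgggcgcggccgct
GPC1, chr2:240435413-240435662, plus strand: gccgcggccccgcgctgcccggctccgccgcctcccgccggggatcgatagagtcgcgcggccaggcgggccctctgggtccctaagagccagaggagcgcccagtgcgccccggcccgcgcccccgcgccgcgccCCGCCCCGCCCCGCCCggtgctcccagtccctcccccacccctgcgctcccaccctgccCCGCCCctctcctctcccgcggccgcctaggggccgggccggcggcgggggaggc
GPC2, chr7:100177382-100177631, minus strand: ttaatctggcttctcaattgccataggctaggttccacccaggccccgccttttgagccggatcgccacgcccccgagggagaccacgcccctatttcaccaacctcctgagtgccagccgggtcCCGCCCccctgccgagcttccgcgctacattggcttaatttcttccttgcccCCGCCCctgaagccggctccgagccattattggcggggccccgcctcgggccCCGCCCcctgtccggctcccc

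On both strands, TNAAGGTCA was found in 0 of the 9 member windows and in 0.854% of all 35116 RefSeq windows of the same length. Its shorter form AAGGTCA was also in 0 of 9 windows, against 3.44% of all windows, and AGGTCA, which lies within both, was in 0 of 9 against 12.1%. These counts say only that the letters are not in these windows. GGGCGG was in 8 of 9 member windows, against 42.6% of all, with 5 matches in SDC3, 4 in GPC1, 3 in GPC2 and 8 in SDC4. The window of GPC6 was the exception, with 0 GC boxes, 37.6% G and C and 6 CG dinucleotides, while that of SDC3 had 83.6% and 37 and that of GPC1 had 84.0% and 36. The median over all windows was 58.0% G and C and 11 CG dinucleotides. The 8 windows with a GC box had 62.4% to 84.0% G and C, and they were not set against windows of like content. TATAAA, the letters of the TATA box, was in 2 of 9 windows, those of GPC5 and GPC6, against 10.7% of all. Matches were counted on either strand and at any place in the window, and whether they act as a TATA box was not tested. CACGTG, an E-box, was in 0 of 9 against 6.34%.

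In control cells the syndecans held most of the family's transcripts. Levels between genes were compared on the deposited length-scaled values, which behave as FPKM. In siCont SDC1 was highest with 21.74 FPKM, followed by SDC2 with 17.90, SDC3 with 14.64 and GPC1 with 11.19. GPC6 and GPC2 came next with 2.86 and 2.85 FPKM, and SDC4, GPC5 and GPC4 were at 0.35, 0.11 and 0 FPKM. Over the 3 libraries, the ranges of SDC3 and GPC1 overlapped, as did those of GPC6 and GPC2 and those of GPC5 and GPC4, while the ranges of the other neighbours in this order did not. The order differed between siCont and the ESRRG siRNA libraries at 2 places. SDC3 was the third highest member in siCont and the fourth in both ESRRG siRNA libraries, below GPC1. GPC2 was above GPC6 in both, but in siCont GPC2 and GPC6 were nearly level, at 2.85 and 2.86 FPKM.

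Summed over the 9 members, the level was 71.6 FPKM in siCont, 63.4 in siERRG2 and 57.8 in siERRG3. Without SDC3 the sums were 57.0, 56.2 and 49.8 FPKM, so in siERRG2 the ratio of the sums to siCont was 0.885 with SDC3 and 0.985 without it. In siERRG3 the ratio was 0.806 with SDC3 and 0.875 without it. The share of SDC3 in the family was 20.4% in the control, 11.5% with siERRG2 and 13.7% with siERRG3, and the share of SDC1 was 30.3%, 33.1% and 36.1%. The summed FPKM of the 5 glypicans was 17.0 in siCont, 16.0 in siERRG2 and 12.7 in siERRG3.

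**Figure D1:**
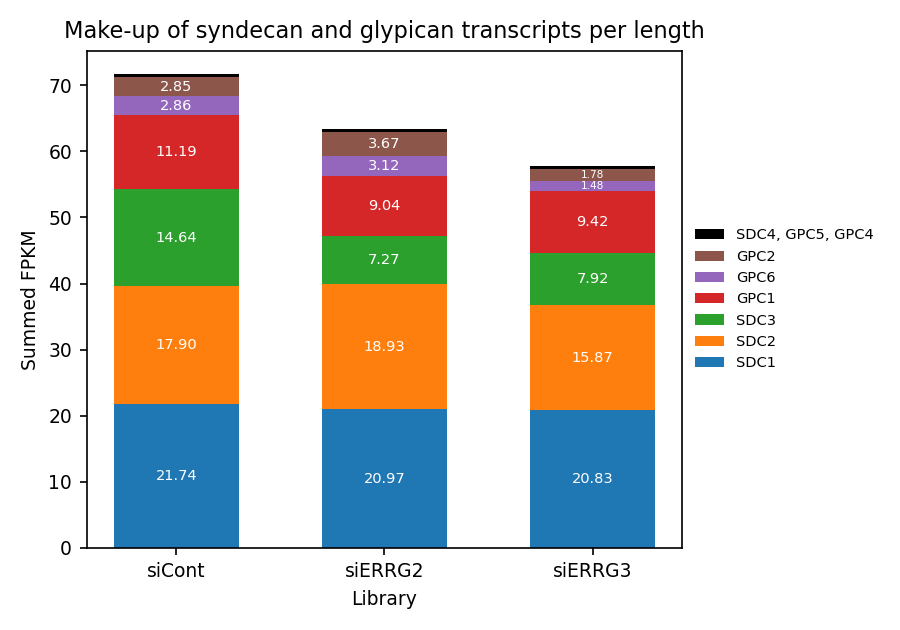
Stacked bars of the deposited FPKM values (vertical axis, linear from 0) of the syndecans and glypicans in the libraries siCont, siERRG2 and siERRG3 (horizontal axis), 1 library per bar, with SDC4, GPC5 and GPC4 together at the top. The SDC3 segment is 14.64 in siCont, 7.27 in siERRG2 and 7.92 in siERRG3, while the SDC1 segment stays between 20.83 and 21.74.

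Of the 10 members, 7 passed the count minimum and could be compared. In siERRG2, 2 of 7 were called lower, SDC3 and GPC1, against 19.2% of all genes compared, and 1 of 7, GPC2, was called higher, against 16.4%. In siERRG3, 3 of 7 were called lower, SDC3, GPC2 and GPC6, against 25.1% of all genes, and 0 of 7 higher, against 23.2%. SDC3 was the 1 member called lower in both libraries, against 7.88% of all genes, and 0 were higher in both, against 7.26%. Among the 11369 genes whose mean count reached 50, 6.24% were lower in both and 4.50% higher in both. With 7 members, these counts do not set the family apart from all genes. The median log2 fold change of the 7 members was -0.068 in siERRG2 and -0.26 in siERRG3, and that of all genes was 0.0 and -0.003. Both ratios of a gene share the siCont library, so its 2 values are not independent.

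**Figure D2:**
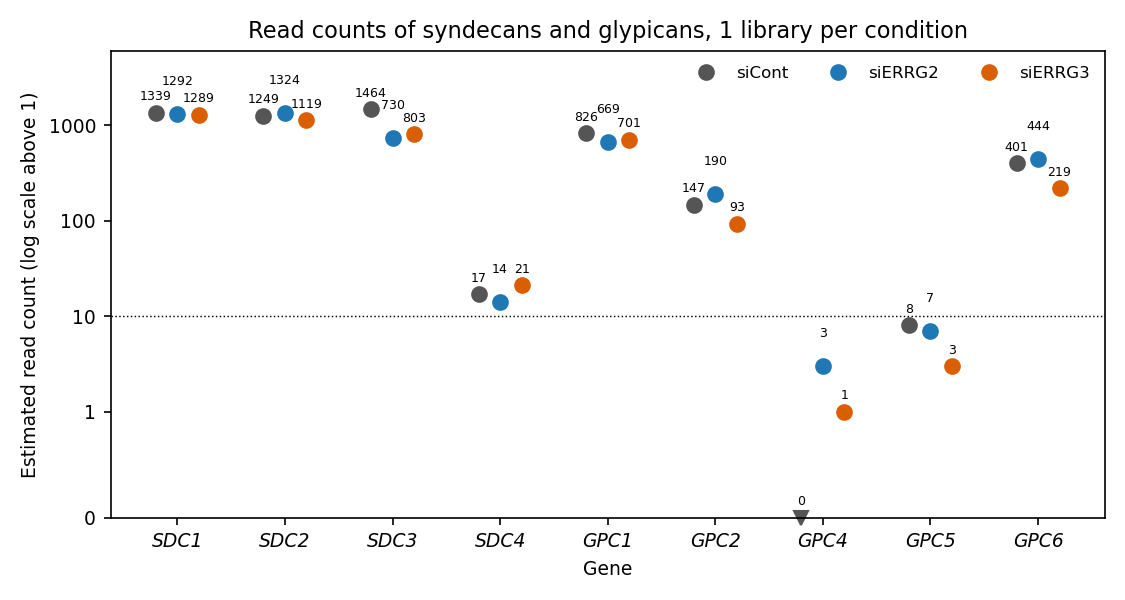
Estimated read counts (vertical axis, logarithmic above 1) of the 9 members (horizontal axis), with 1 point per library for siCont, siERRG2 and siERRG3, a triangle for a count of 0 and a dotted line at 10 counts, the minimum for a comparison. SDC3 lies at 1464 in siCont against 730 and 803, while SDC1 lies between 1289 and 1339 in the 3 libraries.

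SDC3, known mainly from neurons, was the syndecan past the count minimum with the largest difference from control in both libraries. SDC3 (gene 9672, chromosome 1, 30868763 to 30910020 in the GRCh38 coordinates of the table) had 1464 counts in the control against 730 with siERRG2 and 803 with siERRG3. The siCont library stood well above the other two, which were close to each other. On the log2 scale the difference from siCont was -1.02 with siERRG2 and -0.89 with siERRG3. The count ratios were 0.493, with an interval of 0.450 to 0.539, and 0.539, with an interval of 0.494 to 0.588. Of all genes compared, 2.1% had a lower log2 fold change in siERRG2 and 3.91% in siERRG3. Between the ESRRG siRNA libraries its ratio was 1.09, with an interval of 0.989 to 1.21 that includes 1. SDC3 is labelled in a heat map of ESRRG knockdown in the study, so its place here is not independent evidence.

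SDC1, the main syndecan of epithelial cells (gene 6382, chromosome 2, 20200796 to 20225433), had 1339 counts in the control against 1292 with siERRG2 and 1289 with siERRG3. The 3 libraries were nearly level, and the intervals of its ratio to siCont, 0.883 to 1.03 and 0.876 to 1.02, include 1 and lie within 1.2-fold. SDC2, a syndecan of mesenchymal cells, had 1249, 1324 and 1119 counts. Its siERRG3 library was the low one, with a ratio to siCont of 0.881 and an interval of 0.812 to 0.956, and the ratio of siERRG3 to siERRG2 was 0.841 (0.776 to 0.911). These differences exceeded counting error but did not reach the 1.2-fold call. SDC4, the syndecan of focal adhesions (gene 6385, chromosome 20, 45325288 to 45348424), had only 17, 14 and 21 counts. Its intervals, 0.372 to 1.75 in siERRG2 and 0.610 to 2.45 in siERRG3, allow changes in either direction, so a difference was not detectable at this depth.

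Among the glypicans, GPC1 was slightly lower with both siRNAs. GPC1, a co-receptor of fibroblast growth factors (gene 2817, chromosome 2, 240435383 to 240468643), had 826 counts in the control against 669 with siERRG2 and 701 with siERRG3. Relative to siCont the ratio was 0.801 (0.722 to 0.888) with siERRG2 and 0.835 (0.754 to 0.924) with siERRG3, so both lay below 1 by more than counting error and siERRG3 stopped just short of the threshold. The log2 fold changes were -0.32 and -0.26. The ratio of siERRG3 to siERRG2 was 1.04, with an interval of 0.936 to 1.16.

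GPC6 and GPC2 separated the ESRRG siRNA libraries from each other. GPC6, a glypican known from skeletal growth (gene 10082, chromosome 13, 93224527 to 94408020), had 401 counts in the control against 444 with siERRG2 and 219 with siERRG3. The siERRG3 library was the low one, and siCont and siERRG2 were close. Relative to siCont the ratio was 1.09 (0.954 to 1.26) with siERRG2 and 0.537 (0.453 to 0.635) with siERRG3, that is 0.13 and -0.89 as log2 fold changes. GPC2, a glypican of developing neurons (gene 221914, chromosome 7, 100159242 to 100177426), had 147, 190 and 93 counts. It was higher than siCont in siERRG2, with a ratio of 1.28 (1.02 to 1.60), and lower in siERRG3, with 0.622 (0.475 to 0.812). Of all genes, 6.05% passed the threshold in opposite directions in the 2 libraries, and of those whose mean count reached 50, 4.53%.

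Set directly against each other, siERRG3 had fewer counts than siERRG2 for GPC6 and GPC2, and 2 of 7 members were called lower, against 25.3% of all genes. The ratio was 0.491 (0.415 to 0.578) for GPC6 and 0.487 (0.376 to 0.627) for GPC2, and 2.97% and 2.95% of all genes had a lower log2 fold change in this comparison. SDC4 was the 1 member called higher, against 26.4% of all genes, with an interval of 0.724 to 3.17 that includes 1. ESRRG itself had 211 and 230 counts in these libraries. CDH5, an endothelial marker given above, was also lower in siERRG3 than in the other libraries. PECAM1, the other endothelial marker past the count minimum, did not share this, with 27, 20 and 25 counts. Whether the make-up of the cultures bears on the GPC2 and GPC6 values was not tested. A difference between cultures and one between siRNAs cannot be told apart with 1 library of each.

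**Figure D3:**
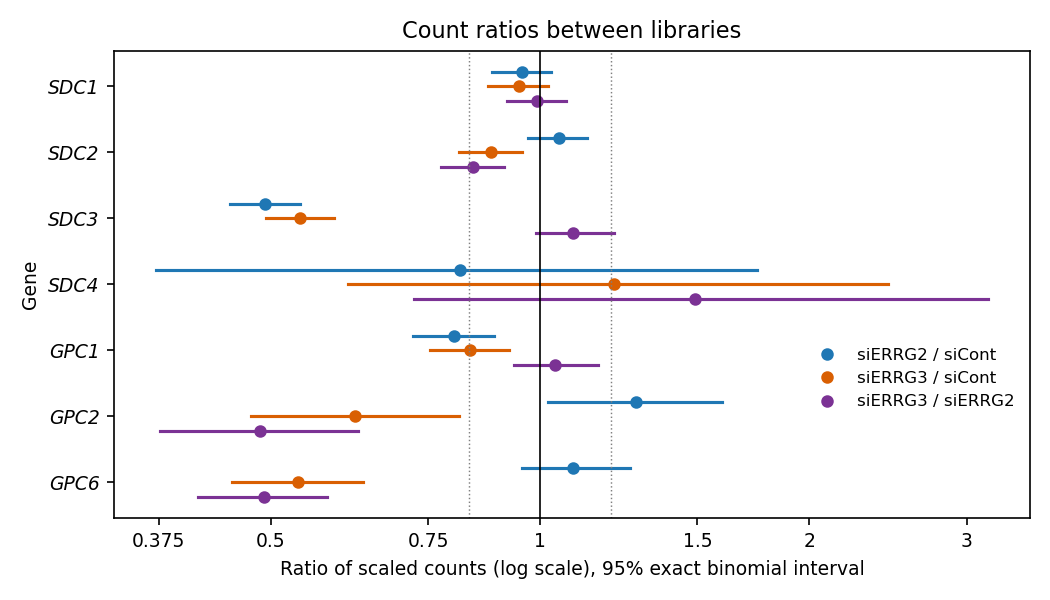
Ratios of scaled counts between libraries (horizontal axis, log scale) for the 7 members past the count minimum (vertical axis), with points for the ratio and bars for the 95% exact binomial interval, which covers counting error only, and dotted lines at 1.2-fold. Both SDC3 bars to siCont lie below 0.6, GPC2 lies on opposite sides of 1 in siERRG2 and siERRG3, and the SDC4 bars are wide.

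The remaining glypicans were near or below detection. GPC5 had 8 counts in the control against 7 with siERRG2 and 3 with siERRG3, with ratio intervals relative to siCont of 0.267 to 2.73 and 0.063 to 1.54. GPC4 had 0, 3 and 1 counts, all at or under the floor of 3 counts, so no fold change is given. The 0 in siCont does not show that the transcript was absent. GPC5 (91346853 to 92870141) and GPC6 both lie on chromosome 13, and in siCont their levels were 0.11 and 2.86 FPKM.

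Of the 6 members whose mean count reached 50, the deposited counts were whole numbers for SDC1, SDC2, SDC3, GPC1 and GPC2, and fractional for GPC6. The transcript length implied by the count and the FPKM differed between libraries by 0.0609% to 0.605% for these 5 genes and by 4.94% for GPC6, from 7059 to 7408 bases. The log2 fold change of GPC6 in siERRG3 was at most -0.88 under every alternative tried, FPKM included. In the table the extent of GPC2 overlaps those of LAMTOR4, C7orf43 and GAL3ST4, with 1163, 571 and 23 counts in siCont. A shift of reads between these and GPC2 was not tested. With siERRG2 and siERRG3, LAMTOR4 had 1399 and 1031 counts, C7orf43 had 700 and 657, and GAL3ST4 had 22 and 25. GPC6 overlaps TGDS, with 209, 224 and 211 counts, and GPC1 overlaps ANKMY1, with 68, 84 and 88.

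The genes with the pair of log2 fold changes nearest to that of SDC3, among the same 11369 genes, were TOM1L2, C3orf18 and CDH15. They lay within 0.0457, 0.0479 and 0.0585 log2 units of it. CDH15, a cadherin of muscle cells, had 353 counts in the control against 172 with siERRG2 and 186 with siERRG3, and TOM1L2 had 448, 222 and 253. CDH15 is labelled in the same heat map. These genes were picked for their nearness, so the small distances follow from the choice and are not evidence of a shared regulation. The values rest on 3 libraries and 1 shared control.

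The lists below hold 3 to 26 genes each. In the longest, 1 gene moves a share by a few percentage points, and in the shortest by 33.3. No list was tested against all genes. Of 9 secreted or part-time proteoglycans, 5 were lower and 2 higher in siERRG2 (55.6% and 22.2%, against 19.2% and 16.4% of all genes), and 3 were lower and 4 higher in siERRG3 (33.3% and 44.4%, against 25.1% and 23.2%), with median log2 fold changes of -0.307 and -0.035. The matrix proteoglycans AGRN, HSPG2 and COL18A1 were lower in both. AGRN, the agrin of basement membranes and synapses, had 650 counts in the control against 531 with siERRG2 and 357 with siERRG3, at log2 values of -0.31 and -0.89 relative to siCont. HSPG2, which encodes perlecan, had 195, 141 and 151 counts, and COL18A1, a basement membrane collagen, had 146, 112 and 96. All 3 had intervals of the ratio below 1 in both libraries. NRP1, a co-receptor of vascular endothelial growth factor, was called higher in both with 48, 63 and 60 counts, but its intervals of 0.877 to 1.93 and 0.827 to 1.84 include 1. SPOCK2, a testican, had 407, 259 and 404 counts.

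Of 7 genes of the linker between core protein and chain, 1 was lower and 0 higher in siERRG2 (14.3% and 0%, against 19.2% and 16.4% of all genes), and 2 were lower and 2 higher in siERRG3 (28.6% and 28.6%, against 25.1% and 23.2%), with medians of 0.002 and 0.052. XYLT1, the xylosyltransferase that starts the linker, had 629, 366 and 479 counts, or -0.79 and -0.42 as log2 fold changes. FAM20B, a xylose kinase, had 1959, 1985 and 2065 counts, and B3GALT6, a galactosyltransferase, had 1688, 1799 and 2051. Of 5 genes of chain polymerization, 3 were lower and 0 higher in siERRG2 (60.0% and 0%, against 19.2% and 16.4% of all genes), and 3 were lower and 0 higher in siERRG3 (60.0% and 0%, against 25.1% and 23.2%), with medians of -0.512 and -0.335. EXTL3, which starts the chain, had 1292, 916 and 1260 counts, and EXT2, a subunit of the polymerase, had 742, 687 and 517, so each was low in a different library. EXTL1 was the 1 gene of the list called lower in both, with 62, 23 and 38 counts.

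Of 10 genes of chain sulfation and epimerization past the count minimum, 3 were lower and 1 higher in siERRG2 (30.0% and 10.0%, against 19.2% and 16.4% of all genes), and 5 were lower and 0 higher in siERRG3 (50% and 0%, against 25.1% and 23.2%), with medians of -0.105 and -0.301. HS6ST1, a 6-O-sulfotransferase and the most abundant gene of this list that was lower in both, had 2318 counts in the control against 1637 with siERRG2 and 1635 with siERRG3. Its ratio to siCont had intervals of 0.655 to 0.744 and 0.651 to 0.739, with log2 fold changes of -0.52 and -0.53. NDST3, an N-deacetylase and N-sulfotransferase, had 122, 89 and 90 counts. GLCE, the epimerase, had 2284, 3051 and 1784 counts and so differed in direction between the libraries, and HS2ST1, a 2-O-sulfotransferase, had 1796, 2006 and 2180.

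Of 9 genes that supply sugar and sulfate donors, 2 were lower and 1 higher in siERRG2 (22.2% and 11.1%, against 19.2% and 16.4% of all genes), and 4 were lower and 0 higher in siERRG3 (44.4% and 0%, against 25.1% and 23.2%), with medians of 0.054 and -0.111. PAPSS1, which makes the sulfate donor that sulfotransferases use, had 5384, 4446 and 3409 counts, or -0.29 and -0.68 as log2 fold changes. SLC35D1, a carrier of nucleotide sugars, had 521, 325 and 439 counts. IMPAD1, a phosphatase of the Golgi, had 2152, 1954 and 2037 and was not called.

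The genes that cut or edit the finished chain were few. Of 3 past the count minimum, 0 were lower and 1 higher in siERRG2 (0% and 33.3%, against 19.2% and 16.4% of all genes), and 1 was lower and 2 higher in siERRG3 (33.3% and 66.7%, against 25.1% and 23.2%), with medians of -0.141 and 0.907. HPSE, which encodes heparanase, the enzyme that cleaves heparan sulfate outside the cell, had 47 counts in the control against 95 with siERRG2 and 146 with siERRG3. It stood at 0.97 and 1.57 on the log2 scale, with ratio intervals of 1.39 to 2.90 and 2.19 to 4.34, so it was higher in both. SULF2, an extracellular 6-O-sulfatase, had 297, 261 and 568 counts. Of 8 lysosomal genes of heparan sulfate breakdown, 2 were lower and 2 higher in siERRG2 (25.0% and 25.0%, against 19.2% and 16.4% of all genes), and 5 were lower and 2 higher in siERRG3 (62.5% and 25.0%, against 25.1% and 23.2%), with medians of 0.097 and -0.376. IDS, a lysosomal sulfatase, had 3143, 3990 and 4872 counts, and NAGLU, a lysosomal glucosaminidase, had 395, 290 and 238, so the former was higher and the latter lower in both. GUSB, the lysosomal glucuronidase, had 1660, 1859 and 1235 counts.

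Of 16 genes of core protein shedding and release, 8 were lower and 1 higher in siERRG2 (50% and 6.25%, against 19.2% and 16.4% of all genes), and 4 were lower and 2 higher in siERRG3 (25.0% and 12.5%, against 25.1% and 23.2%), with medians of -0.283 and -0.066. GDPD5, which cuts GPI anchors of glypicans, had 129, 78 and 105 counts, and its interval was below 1 in siERRG2, at 0.445 to 0.798, and not in siERRG3, at 0.613 to 1.04. ADAM10, a sheddase, had 1188, 1309 and 1048 counts, and PCSK7, a proprotein convertase, had 1006, 1033 and 950. Of 12 partners of the syndecan cytoplasmic tail, 2 were lower and 1 higher in siERRG2 (16.7% and 8.33%, against 19.2% and 16.4% of all genes), and 6 were lower and 2 higher in siERRG3 (50% and 16.7%, against 25.1% and 23.2%), with medians of 0.015 and -0.209. EZR, which encodes ezrin, a linker to the actin cytoskeleton, had 1020, 1292 and 1516 counts and was higher in both. CASK, a scaffold that binds the syndecan tail, had 3098, 3072 and 2993 counts and was called in neither, and CTTN, which encodes the actin-binding protein cortactin, had 3047, 3401 and 1881.

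Of 26 ligands and receptors that bind heparan sulfate, 3 were lower and 5 higher in siERRG2 (11.5% and 19.2%, against 19.2% and 16.4% of all genes), and 9 were lower and 4 higher in siERRG3 (34.6% and 15.4%, against 25.1% and 23.2%), with medians of 0.07 and 0.014. ALK, a receptor tyrosine kinase, had 511 counts in the control against 240 with siERRG2 and 273 with siERRG3, or -1.10 and -0.92 on the log2 scale. EGFR, the epidermal growth factor receptor, was higher in both with 125, 172 and 156 counts, and its interval in siERRG3, 0.964 to 1.57, includes 1. PTPRS, a receptor phosphatase that binds heparan and chondroitin sulfate, had 2961, 3029 and 2742 counts, and ROBO1, a Slit receptor, had 3038, 2781 and 2565. Of 15 genes of chondroitin sulfate proteoglycans and their synthesis, 4 were lower and 1 higher in siERRG2 (26.7% and 6.67%, against 19.2% and 16.4% of all genes), and 3 were lower and 6 higher in siERRG3 (20% and 40.0%, against 25.1% and 23.2%), with medians of -0.018 and 0.088. BGN, which encodes biglycan, had 1304, 745 and 1014 counts and was lower in both, while CHPF and CHST3, enzymes of chondroitin sulfate, had 1277, 1276 and 1096 and 1233, 1101 and 1205 counts.

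**Figure D4:**
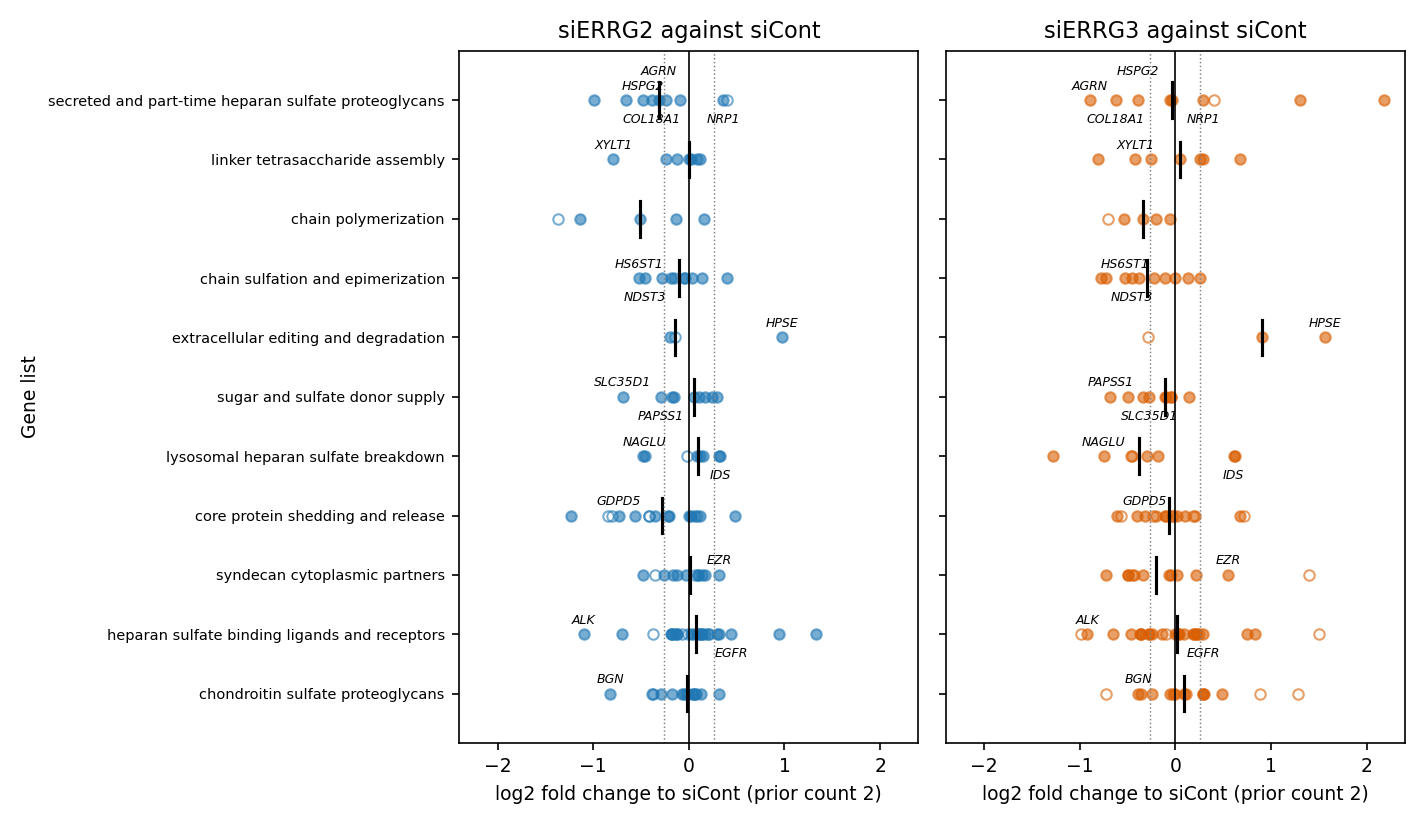
Log2 fold changes to siCont (horizontal axis) of the genes past the count minimum in each pathway list (vertical axis), in siERRG2 on the left and siERRG3 on the right, 1 point per gene, open where the mean is under 50 counts, with a bar at the median of the list and dotted lines at 1.2-fold. The labelled genes have mean counts from 50 upward and passed 1.2-fold in the same direction in both libraries, among them HPSE at 0.97 and 1.57 and HS6ST1 at -0.52 and -0.53.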

How the data were processed

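RNA from 3 libraries of H128 cells was sequenced, 1 library per condition. The members and gene lists were chosen with earlier results of these data known. The authors deposited each estimated count per gene without normalization, of which 54.0% to 54.9% were whole numbers per library, and length-scaled values whose unit is not named and which behave as FPKM. The methods name BWA and Bowtie 2 and the build GRCh37/hg19, while the submitters' processing notes name TopHat2, HTSeq and DESeq2, and the table's coordinates are of GRCh38. The methods name no counting program. The table's strand equalled that of RefSeq for 78.7% of 13693 genes and was not used. The authors' log2 ratios, Poisson p-values and adjusted p-values were not used.

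Counts were rounded and scaled by TMM (edgeR 4.0.16, R 4.3.3), with factors of 0.994, 1.003 and 1.003. A gene was kept when 1 or more libraries reached 10 counts. Intervals of count ratios are 95% exact binomial (Clopper-Pearson) and cover counting error only. Code was checked on simulated data. The alternatives were total counts, DESeq2 1.42.0 size factors, no filter, a mean of at least 50 counts, a prior count of 0.5, FPKM with a pseudocount of 0.1, unrounded counts, and thresholds of 1.5-fold and 2-fold. Named were all members, the ERR genes and, per list, up to 4 genes called the same way with both ESRRG siRNAs whose mean count reached 50 and the 2 with the highest counts, with the 3 nearest genes of a member called in both. EXTL1, the marker genes, the overlapping genes and those in the closing section were chosen after their values were seen.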

Additional observations from a re-analysis of the deposited data

Results flagged for a closer look

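Looking over the 7 compared members and the list genes whose mean count reached 50, 109 genes in all, 7 passed 1.2-fold in opposite directions to siCont in siERRG2 and siERRG3. This is 6.42%, against 6.05% of all genes compared and 4.53% of those whose mean count reached 50, so the number of such genes is near the background. A further 2 list genes with lower counts, GPLD1 and CSPG4, did so too. The 109 genes leave out the cell type markers. Of the markers, LUM, a mesenchymal one, and TP63, a non-neuroendocrine epithelial one, also passed 1.2-fold in opposite directions. Counts stand in the order siCont, siERRG2, siERRG3. Each rests on 1 library per condition, so the difference between conditions was not tested. GPC2 had a log2 fold change of siERRG3 to siERRG2 of -1.02. In the same comparison, GLCE, the heparan sulfate epimerase, was at -0.78, and HGSNAT, a lysosomal acetyltransferase of heparan sulfate breakdown with 384, 487 and 160 counts, was at -1.60. FGFRL1, a fibroblast growth factor receptor without a kinase domain, had 55, 143 and 35 counts and a value of -1.98. MDK, which encodes midkine, a heparin-binding growth factor, had 1304, 810 and 2364 counts and a value of 1.54. PTPRZ1, a receptor phosphatase that carries chondroitin sulfate, had 179, 225 and 141 counts and a value of -0.67. CSGALNACT1, an enzyme of chondroitin sulfate synthesis, had 98, 81 and 122 counts and a value of 0.57.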

How the results depend on the processing

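The 23 log2 fold changes of the 7 members and ESRRG kept their direction wherever they passed 1.2-fold, and all 158 values under the scaling, filter, prior, FPKM and rounding alternatives lay within the counting interval. The largest range was that of SDC4, at 0.45 to 0.56 for siERRG3 to siERRG2. The counts of called members moved as follows. Members higher in siERRG3 numbered 1 instead of 0 with total counts, with a prior count of 0.5 and with no filter. With no filter, members higher in siERRG2 numbered 2 instead of 1, and 1 was higher in both (GPC4, at 0, 3 and 1 counts). Members lower in siERRG2 numbered 3 instead of 2 with a prior count of 0.5 (SDC4 added), and members lower in siERRG3 numbered 4 instead of 3 with no filter (GPC5 added). At 1.5-fold, 1 member was lower and 0 higher in siERRG2. At 2-fold, 1 was lower and 0 higher in siERRG2, 0 were lower in siERRG3 and 0 in both, by the higher threshold itself. SDC3 was lower in both under every alternative but 2-fold. No paired analysis was possible because each condition has 1 library. Leaving out a replicate was not possible for the same reason. Depth limits SDC4, GPC5 and GPC4, for which changes below about the width of their intervals were not detectable.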

Other observations

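Some genes of the heparan sulfate lists differed from siCont mainly in 1 ESRRG siRNA library, and were picked after their values were seen. EXT1, a subunit of the heparan sulfate polymerase, had 604 counts in the control against 277 with siERRG2 and 536 with siERRG3, and FURIN, a proprotein convertase, had 731, 315 and 756. Both were low in siERRG2, at -1.14 and -1.23 on the log2 scale relative to siCont. TGFBR3, which encodes betaglycan, a part-time heparan sulfate proteoglycan and co-receptor of transforming growth factor beta, had 96, 82 and 448 counts, and CD44, a hyaluronan receptor, had 56, 53 and 143. Both were high in siERRG3, at 2.18 and 1.30 on that scale, with count ratio intervals of 3.67 to 5.78 and 1.83 to 3.48. These values have no replicate check.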
